A study of Mus musculus with 12 samples.

Results

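Mouse bone marrow mesenchymal stem cells (MSCs) treated with TGF-β1 together with G-MDSC supernatant were compared with untreated MSCs, to ask which part of the response to TGF-β1 remained in the treated cells, which part was back at the untreated level and which genes lay beyond it. G-MDSCs are granulocytic myeloid-derived suppressor cells, immune cells that dampen other immune cells, and the supernatant is the medium in which they had been cultured. The comparison used 6 of the 12 libraries of the series: 3 of MSCs that received G-MDSC supernatant in addition to TGF-β1 at 5 ng/mL (called TGF-β1/G-MDSC supernatant) and 3 of MSCs without treatment (control). A further 3 libraries of MSCs with 5 ng/mL TGF-β1 alone defined the TGF-β1 response. All cells carried the C57BL/6 background. The MSCs were obtained ready-made from a commercial source, and neither the labels nor the methods say whether the 3 libraries of a group came from separate cultures, so p-values measure only the spread between these libraries, which may be technical. The control cells had received neither TGF-β1 nor supernatant, so that in the comparison with control alone the effects of the 2 additions cannot be told apart. A gene was included when its FPKM (fragments per kilobase of exon, scaled to the number of mapped fragments) was at least 1 in at least 3 of the 6 control and TGF-β1 libraries, and 11619 of the 55401 genes of the table met this rule. Of these, 251 met it through the control libraries alone, 97 through the TGF-β1 libraries alone, and 492 were at or above 1 FPKM in exactly 3 of the 6 libraries; a further 294 genes reached that level in exactly 2 and were left out.

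TGF-β1 acts on mesenchymal cells through receptor kinases and SMAD transcription factors, and drives them toward myofibroblasts, contractile cells that carry α-smooth muscle actin and deposit collagen in wounds and fibrotic organs. Its transcriptional response holds separate branches: a matrix branch of collagens and their processing enzymes, a contractile branch under the control of serum response factor, feedback inhibitors of the pathway itself, and genes that are switched off, among them inflammatory and interferon-stimulated genes. Interferon-stimulated genes are induced by transcription factors that bind a DNA element of repeated GAAA cores in their promoters.

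The deposited counts per library ranged from 73977669 to 84565450 over the series, and replicate libraries correlated at Pearson's r of 0.984 to 0.987 across genes on log2(FPKM + 1). The surface antigens by which the cells had been typed were as labelled, except for Ly6a (Sca-1), described below: Itgb1 (CD29) lay between 247 and 378 FPKM and Cd44 between 38.5 and 65.3 FPKM in the control and TGF-β1/G-MDSC supernatant libraries, while Pecam1 (CD31) stayed at or under 0.218 FPKM and Kit (CD117) at or under 0.0117 FPKM in all of them. The 14 granulocyte markers summed to 0.551, 0.342 and 6.01 FPKM in the TGF-β1/G-MDSC supernatant libraries and to 1.93 to 2.27 FPKM in control, where most of it was Ly6g. Replicate 3 of the supernatant group stood apart, with S100a9 at 3.40, Lcn2 at 0.753, Retnlg at 0.531 and S100a8 at 0.513 FPKM, whereas Elane and Mpo were at the floor of the table in all 3 libraries. Transcripts of other organs were present in all 3 TGF-β1/G-MDSC supernatant libraries. Kap, a kidney androgen-regulated protein of the proximal tubule, had 2474, 3185 and 3010 counts, and Umod, the uromodulin of the kidney's thick ascending limb, had 553, 521 and 592, against 0 in each control and TGF-β1 library. Of the 10 kidney tubule markers, 6 were at or above 1 FPKM in each supernatant library, with a summed level of 50.6 to 64.5 FPKM, against 1 marker (Aqp1) and 29.2 to 30.8 FPKM in control. Aqp1 made up most of the control sum, at 28.8 to 30.4 FPKM, and was at 3.22 to 3.28 FPKM in the supernatant libraries. Alb, the liver's serum albumin, chosen after its values were seen, had 7588, 7039 and 7827 counts against 0 in each of the other 6 libraries. Such genes failed the inclusion rule, which does not use the supernatant libraries. The 90 genes that failed it but had at least 1 FPKM in every TGF-β1/G-MDSC supernatant library, each above all control and TGF-β1 libraries, held 0.0749%, 0.0749% and 0.0795% of the counts there and 0.00933% to 0.0107% in control. The macrophage and neutrophil lysozyme Lyz2 reached 2.11, 1.94 and 1.56 FPKM against at most 0.191 FPKM in control. Tyrobp, Laptm5 and Itgam, further leukocyte genes, were also above control in all 3 supernatant libraries at 0.244 to 0.396, 0.115 to 0.167 and 0.0297 to 0.0872 FPKM, the pan-leukocyte marker Ptprc (CD45) was at or under 0.0157 FPKM, and the 12 leukocyte markers summed to 27.1 to 30.2 FPKM against 27 to 29 FPKM in control, most of it Cd14. The haemoglobin gene Hbb-bs was at 0.744 to 1.72 FPKM against at most 0.0981 FPKM in control. The part of these transcripts in the results was not tested.

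By the study's call rule (a change beyond 2-fold in either direction, at an unadjusted p under 0.05, here from edgeR's quasi-likelihood test), 705 genes differed between TGF-β1/G-MDSC supernatant and control, 6.07% of those tested, with 292 higher (2.51%) and 413 lower (3.55%). At an adjusted p under 0.05 with no limit on the fold, 4082 genes differed (35.1%), of which 1898 were higher (16.3%) and 2184 lower (18.8%). The median log2 fold change of all genes tested was 0.00016. Some genes named below met the inclusion rule through 1 group alone, and their differences between control and TGF-β1, and from either of these, are not independent of that rule. Through the TGF-β1 libraries alone these were Col5a3, Ctsw, Postn, Fmod, Mmp9, Tnfrsf11b, Nox4 and Fosb. Through the control libraries alone they were Spon2, Mfap2, Adamts9, Angptl7, Dlk2, Ly6c1, Alpl, Ifi44, Rsad2, Cmpk2, Gbp2, Gbp2b, Gbp9, Gbp3, Tgtp1, Tgtp2, Oas1c, Bmp4, Cxcl10, Cxcl5, Cxcl1 and C3.

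The TGF-β1 program was taken as the genes that passed the study's call rule between TGF-β1 alone and control, 753 genes in all (6.48% of those tested), with 283 higher (2.44%) and 470 lower (4.05%). Each program gene was then placed by its difference between TGF-β1/G-MDSC supernatant and control. It was called remaining when that difference had an adjusted p under 0.05 in the program's direction, past baseline when it passed in the opposite direction, back at baseline when it did not pass and its 95% confidence interval lay within 1.5-fold of control, and undetermined otherwise. Both comparisons use the same 3 control libraries, so they are not independent, and the direct comparison of TGF-β1/G-MDSC supernatant with TGF-β1 alone in the same fit was used as the test of a difference between them. Of the 283 raised genes, 258 (91.2%) remained and 25 (8.83%) were undetermined, while 0 were back at baseline and 0 past it, in the edgeR fit and with DESeq2 and limma alike. Of the 470 lowered genes, 380 (80.9%) remained, 10 (2.13%) were back at baseline, 37 (7.87%) were past it and 43 (9.15%) were undetermined. Remaining sets no limit on the size of the change. Estimates still beyond 2-fold of control in the program's direction were held by 215 of the 283 raised and 334 of the 470 lowered genes. Of the 380 lowered genes that remained, 47 were higher and 8 lower than with TGF-β1 alone at an adjusted p under 0.05 (2.69% and 2.38% of all genes). The median log2 fold change against control of the raised genes was 1.57 with TGF-β1 alone and 1.42 with TGF-β1/G-MDSC supernatant, and that of the lowered genes was -1.55 and -1.27. In the direct comparison with TGF-β1 alone, at an adjusted p under 0.05, 54 of the raised genes were lower and 15 higher, and 106 of the lowered genes were higher and 8 lower, beside 5.07% of all genes tested, 2.38% lower and 2.69% higher. These counts are a description: the program was chosen on the same TGF-β1 libraries, and such a choice by itself favours differences back toward control. The undetermined genes had median log2 fold changes against control of 0.46 for the 25 raised genes and -0.73 for the 43 lowered genes. The 2-fold limit kept weakly changed genes out of the program. With no limit on the fold, 34.9% of all genes tested differed between TGF-β1 alone and control at an adjusted p under 0.05: among the 1913 genes (16.5%) so raised, 1441 (75.3%) remained and 401 (21%) were back at baseline, and among the 2138 lowered (18.4%), 1692 (79.1%) remained, 292 (13.7%) were back at baseline and 74 (3.46%) were past it.

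**Figure D1:**
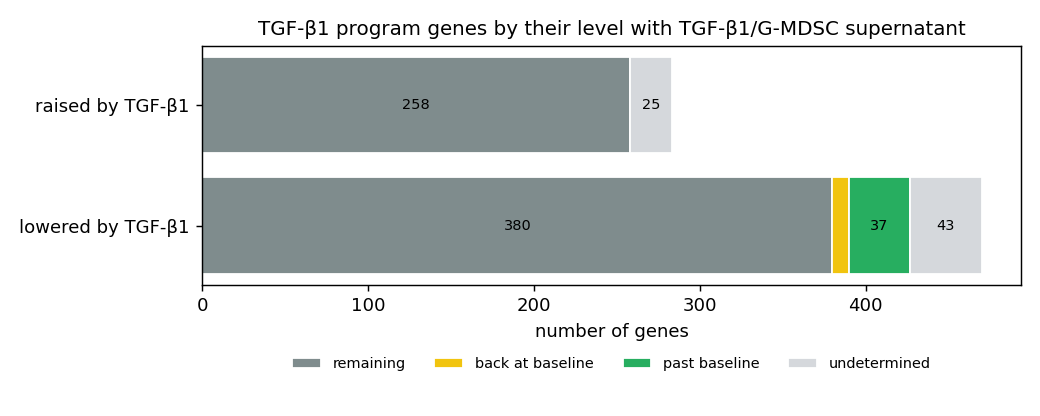
Number of TGF-β1 program genes (horizontal axis) raised or lowered by TGF-β1 alone, split by their level with TGF-β1/G-MDSC supernatant relative to control. Most of both bars is the remaining class (258 of 283 and 380 of 470), and the back-at-baseline (10) and past-baseline (37) classes appear only among the lowered genes.

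Among the genes that remained raised, the largest difference was that of Col5a3, the α3 chain of collagen V (chr9:20770050-20815067, GRCm38). Its level was 0.348, 0.41 and 0.442 FPKM in the 3 control libraries, 30.3, 34.2 and 28.9 FPKM with TGF-β1 alone and 32.7, 28.2 and 28.3 FPKM with TGF-β1/G-MDSC supernatant. The control libraries were far below both treated groups, which overlapped each other. In bulk RNA, fewer cells that carry a transcript and less of it per cell cannot be told apart. The log2 fold change against control was 6.25 ± 0.15 (SE, n = 3 against 3; edgeR adjusted p = 9.07e-10), and against TGF-β1 alone it was -0.09 (adjusted p = 0.801). Col5a3 met the inclusion rule only through the TGF-β1 libraries.

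Jag1, a membrane ligand of Notch receptors (chr2:137081456-137116644), stood at 1.27, 1.13 and 1.01 FPKM in control and at 28, 24.6 and 27.1 FPKM with TGF-β1/G-MDSC supernatant, a log2 fold change of 4.58 ± 0.12 (SE; adjusted p = 1.26e-09). The difference from TGF-β1 alone did not pass the test, at 0.05 on the log2 scale (adjusted p = 0.871). Ctsw, a cysteine cathepsin, and Acsbg1, an acyl-CoA synthetase of the bubblegum family, remained at log2 fold changes of 5.03 and 3.43 above control. Il11, a cytokine of the interleukin-6 family with a known profibrotic role in fibroblasts, was higher than with TGF-β1 alone. Its values were 3.58, 4.06 and 3.66 FPKM in control, 31.1, 37.1 and 34.7 FPKM with TGF-β1 and 51.4, 46.9 and 46.1 FPKM with TGF-β1/G-MDSC supernatant, without overlap between any of the groups. The log2 difference from TGF-β1 alone was 0.47 (adjusted p = 0.0108).

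**Figure D2:**
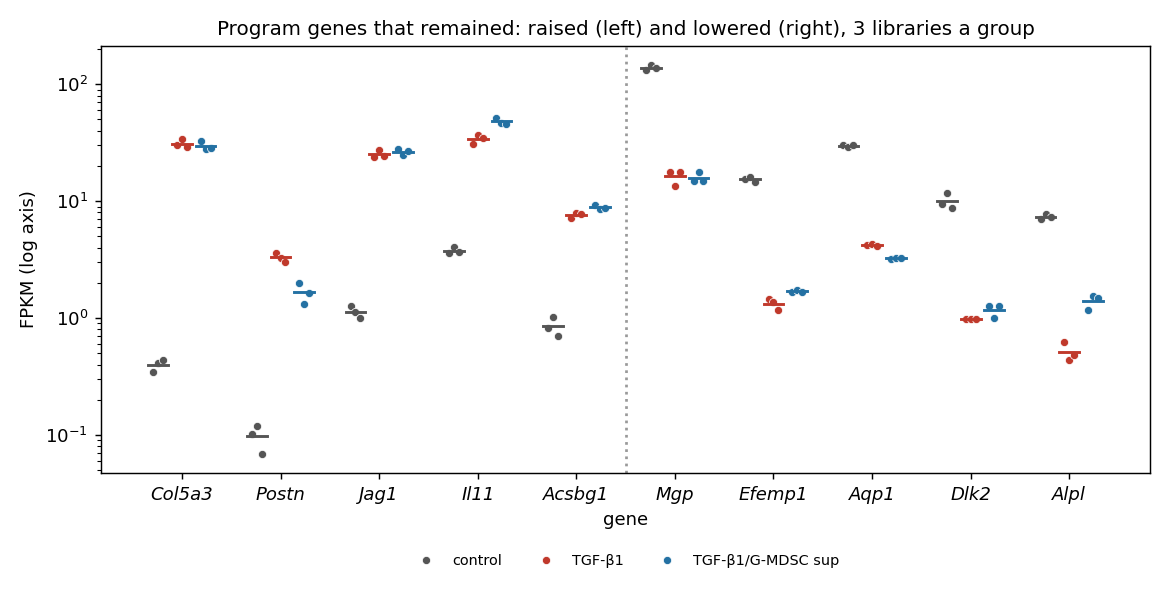
FPKM on a log axis of 5 program genes that remained raised (left of the dotted line) and 5 that remained lowered (right), with a point for each of the 3 libraries of a group and a bar at the group mean. The TGF-β1/G-MDSC supernatant points lie near the TGF-β1 points and apart from the control points, as for Jag1 (24.6 to 28 FPKM against 1.01 to 1.27 FPKM in control) and Mgp (14.9 to 17.9 FPKM against 132 to 145 FPKM).

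The study's 10 myofibroblast genes were chosen by its authors on these samples, so their direction is not independent evidence: all 10 were higher with TGF-β1 alone at an adjusted p under 0.05 (16.5% of all genes were), and 8 of 10 were higher than control with TGF-β1/G-MDSC supernatant (16.3% of all genes). Against TGF-β1 alone, 8 of the 10 were lower and 1 higher (2.38% and 2.69% of all genes). The count of lower genes ranged from 4 to 9 over the alternative fits, and Col3a1 lost its call in 16 of 21. Ccn2, the connective tissue growth factor, was measured at 253, 281 and 258 FPKM in control, 1400, 1551 and 1455 FPKM with TGF-β1 and 1245, 1264 and 1193 FPKM with TGF-β1/G-MDSC supernatant. The supernatant libraries were all above control and all below TGF-β1 alone, with a log2 fold change of 2.26 ± 0.06 (SE) against control (adjusted p = 9.07e-10) and -0.27 against TGF-β1 alone (adjusted p = 0.0128), a call lost in 3 of 21 alternative fits. Col1a1, the α1 chain of the main fibrillar collagen, stood at 481, 523 and 492 FPKM in control, 1032, 1042 and 1026 FPKM with TGF-β1 and 917, 904 and 869 FPKM with TGF-β1/G-MDSC supernatant. This was 0.88 ± 0.06 (SE) above control on the log2 scale (adjusted p = 1.6e-06), and the groups treated with TGF-β1 did not overlap although their difference of -0.23 missed the threshold (adjusted p = 0.0741), which it passed in 3 of 21 alternative fits. Timp1, an inhibitor of matrix metalloproteinases, lay above TGF-β1 alone, with 1256, 1147 and 1073 FPKM against 863, 901 and 914 FPKM, a log2 difference of 0.35 (adjusted p = 0.00273), and was 1.58 above control.

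Of 18 collagen chains tested, 12 were higher than control and 4 were lower at an adjusted p under 0.05 (16.3% and 18.8% of all genes), with a median log2 fold change of 0.39, against 0.74 with TGF-β1 alone and 0.00 over all genes. Besides Col5a3, Col7a1 (anchoring fibrils) was 2.75, Col5a1 1.58, Col3a1 1.45, Col6a3 1.13 and Col5a2 0.94 above control on the log2 scale. The α1 and α2 chains of collagen VI differed from the α3 chain: Col6a1 stood at 43.6, 40.1 and 43.5 FPKM with TGF-β1/G-MDSC supernatant and at 53.7, 56.3 and 54.4 FPKM in control, a log2 fold change of -0.33 (adjusted p = 0.000163), and Col6a2 fell by 0.30 (adjusted p = 0.0186). Col4a5, a basement membrane chain, fell by 1.47. In the direct comparison with TGF-β1 alone, 11 of the 18 chains were lower at an adjusted p under 0.05 (2.38% of all genes). That count ranged from 6 to 12 over the alternative fits.

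Of 19 collagen processing enzymes, 10 were higher than control and 5 lower (16.3% and 18.8% of all genes). Bmp1, the procollagen C-proteinase, was 1.43 above control, Plod2, a lysyl hydroxylase of telopeptides, 1.07, and the lysyl oxidase Loxl2 0.57. Loxl2 was at 16.4, 15.7 and 16.4 FPKM with TGF-β1/G-MDSC supernatant, between the control libraries (11.5, 11.6 and 10.4 FPKM) and those with TGF-β1 alone (24.8, 27 and 24 FPKM), and the log2 difference from TGF-β1 alone was -0.67 (adjusted p = 4.38e-05). Pcolce, the enhancer of procollagen C-proteinase, and Adamts2, the procollagen N-proteinase, fell by 0.97 and 0.77.

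The elastic fibre and matricellular genes were divided, with 11 of 25 higher and 10 lower (16.3% and 18.8% of all genes). Postn (periostin) rose from 0.103, 0.12 and 0.0692 FPKM to 2.01, 1.32 and 1.64 FPKM, a log2 fold change of 4.11 ± 0.21 (SE; adjusted p = 1.24e-07), and lay below TGF-β1 alone (3.59, 3.28 and 3.03 FPKM) by 1.01 (adjusted p = 0.00766). Postn met the inclusion rule only through the TGF-β1 libraries, where it was highest, so that this last difference is not independent of the rule. Tnc (tenascin C) and Fmod (fibromodulin) were 1.98 and 2.64 above control. Spon2, Mfap2, Mfap5 and Thbs2 had log2 fold changes of -3.24, -1.69, -1.41 and -0.86. Of 15 matrix proteases and inhibitors, 6 were higher and 9 lower (16.3% and 18.8% of all genes): Mmp9 (a gelatinase) was 3.45 and Adam12 2.89 above control, while the aggrecan-degrading Adamts5 and Adamts9, Timp2 and the plasminogen activator Plau had log2 fold changes of -2.28, -2.71, -1.05 and -1.36.

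Acta2, α-smooth muscle actin (chr19:34241090-34255590), stood at 1436, 1623 and 1525 FPKM in control, 2082, 2175 and 2113 FPKM with TGF-β1 alone and 1512, 1591 and 1446 FPKM with TGF-β1/G-MDSC supernatant. The supernatant libraries fell within the range of control and below every TGF-β1 library. The log2 fold change against control was 0.03 ± 0.05 (SE), with a 95% confidence interval of -0.09 to 0.14 (adjusted p = 0.768), and the difference from TGF-β1 alone was -0.51 (adjusted p = 0.000221). TGF-β1 alone raised Acta2 by 0.53, under the 2-fold limit, so that the gene is not a member of the 283.

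Tagln, the actin-binding transgelin, showed the same order, with 120, 127 and 132 FPKM in control, 184, 193 and 190 FPKM with TGF-β1 and 127, 148 and 120 FPKM with TGF-β1/G-MDSC supernatant. Its log2 fold change against control was 0.09 (95% confidence interval -0.09 to 0.27; adjusted p = 0.455) and against TGF-β1 alone -0.55 (adjusted p = 0.00262). Cnn1 (calponin 1) was 0.26 above control (interval -0.11 to 0.63) against 1.00 with TGF-β1, and Actg2 (γ-enteric actin) was at -0.21 (interval -0.64 to 0.23) against 0.75. Those intervals reach past 1.5-fold, so that a return to control is not established for Cnn1 and Actg2. Of the 15 contractile genes tested, 10 were higher with TGF-β1 alone (16.5% of all genes). With TGF-β1/G-MDSC supernatant only Smtn (smoothelin, 0.36) and Actn1 (α-actinin 1, 0.30) were higher than control in the edgeR fit of all libraries, Tpm1 and Cnn2 fell by 0.25 and 0.40, and 11 did not pass, shares near those of all genes (16.3% higher and 18.8% lower). Their median log2 fold change was 0.03, and 9 of 15 were lower than with TGF-β1 alone (2.38% of all genes), a count that ranged from 4 to 11 over the alternative fits. Acta2, Tagln and Tpm1 kept the call of that direct comparison in all 21 alternative fits, and Cnn1 lost it in 6 of them. Fn1 (fibronectin), a matrix gene, lay with this group, at 368, 364 and 438 FPKM against 402, 379 and 358 FPKM in control and 546, 499 and 477 FPKM with TGF-β1 (log2 fold change against control 0.08, adjusted p = 0.495).

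**Figure D3:**
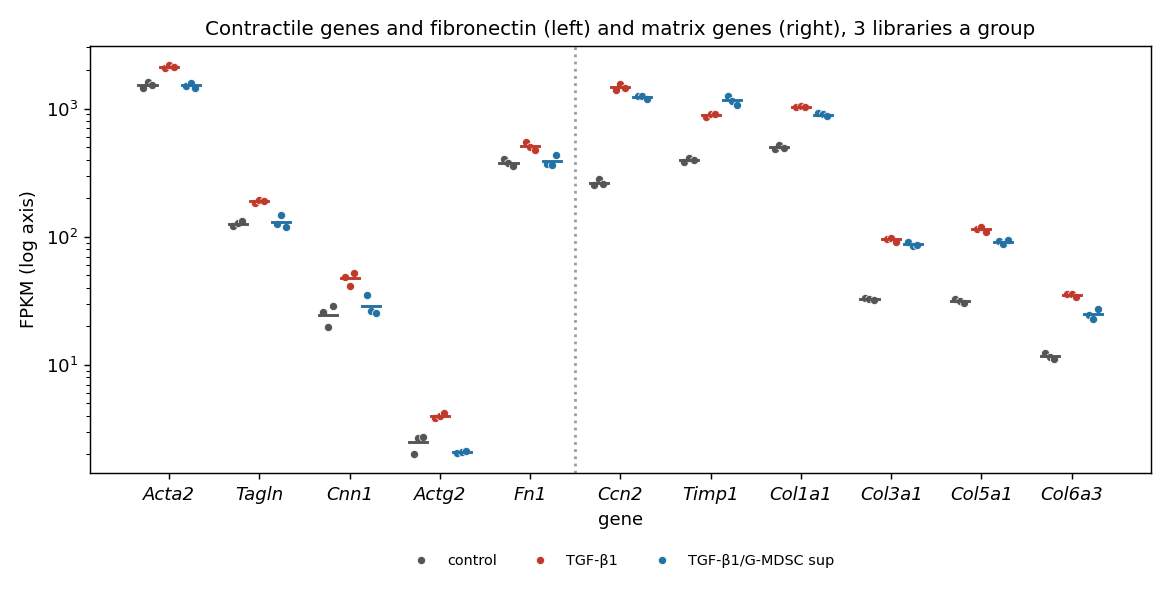
FPKM on a log axis of 4 contractile genes and Fn1 (left of the dotted line) and of 6 matrix genes (right), with a point for each of the 3 libraries of a group and a bar at the group mean. On the left the TGF-β1/G-MDSC supernatant points overlap the control points (Acta2 1446 to 1591 FPKM against 1436 to 1623 FPKM), and on the right they lie above it (Col1a1 869 to 917 FPKM against 481 to 523 FPKM).

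Most of the genes that TGF-β1 lowered remained below control, and 334 of the 470 had estimates still beyond 2-fold. Mgp, matrix Gla protein, an inhibitor of calcification (chr6:136872435-136875823), was at 132, 145 and 137 FPKM in control, 17.9, 13.6 and 17.7 FPKM with TGF-β1 and 14.9, 17.9 and 14.9 FPKM with TGF-β1/G-MDSC supernatant, a log2 fold change against control of -3.08 ± 0.15 (SE; adjusted p = 7.49e-08). The groups given TGF-β1 overlapped. Angptl7, an angiopoietin-like secreted protein, fell from 8.65, 8.57 and 8.94 FPKM to 0.224, 0.529 and 0.314 FPKM, and Efemp1 (fibulin 3) from 15.5, 16.1 and 14.6 FPKM to 1.68, 1.72 and 1.67 FPKM. Aqp1, a water channel, was lower than with TGF-β1 alone (3.22, 3.27 and 3.28 FPKM against 4.19, 4.31 and 4.15 FPKM, adjusted p = 0.0372). Kidney tubules, whose markers were seen in these libraries, also carry Aqp1. Dlk2 and Ly6c1 remained lower by log2 fold changes of -3.04 and -3.06.

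Among genes of other mesenchymal fates, 6 of 9 adipocyte lineage genes tested were lower and 1 higher (18.8% and 16.3% of all genes): Pparg, the master regulator of fat cells, was at 1.87, 1.87 and 1.58 FPKM against 5.39, 6.24 and 5.48 FPKM in control (log2 fold change -1.64, adjusted p = 2.4e-07), and Cebpd fell by 2.11, while Plin2, a lipid droplet coat protein, was 1.77 above control. Of 8 bone and cartilage genes, 5 were higher and 3 lower (16.3% and 18.8% of all genes). Tnfrsf11b (osteoprotegerin), a decoy receptor that restrains bone resorption, rose from at most 0.0911 FPKM to 1.09, 1.34 and 1.23 FPKM (adjusted p = 0.000177), having met the inclusion rule only through the TGF-β1 libraries. Runx2 and Sox9, transcription factors of bone and cartilage, were 0.83 and 0.51 above control. Alpl, alkaline phosphatase of osteoblasts, fell from 7.05, 7.75 and 7.31 FPKM to 1.18, 1.54 and 1.49 FPKM, above the 0.619, 0.434 and 0.486 FPKM with TGF-β1 alone (log2 difference 1.43, adjusted p = 0.000375). Ly6a (Sca-1), a surface marker by which the cells had been typed (chr15:74994877-74998031), was at 241, 243 and 251 FPKM in control, 16.7, 13 and 18.8 FPKM with TGF-β1 and 63.3, 68.4 and 69.2 FPKM with TGF-β1/G-MDSC supernatant. The 3 groups did not overlap, and the supernatant libraries fell by 1.84 against control (adjusted p = 6.63e-07) and were 2.03 above TGF-β1 alone on the log2 scale. Cd34 and Thy1 had log2 fold changes of -2.35 and -1.49.

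Many of the genes that crossed the baseline were on lists of interferon genes, though not all. Of the 37 lowered program genes that lay above control with TGF-β1/G-MDSC supernatant, 24 (64.9%) belonged to the lists of type I interferon-stimulated genes, interferon-γ-inducible GTPases and MHC class I genes, and so did 4 of the 10 that were back at baseline (40%), against 4 of the 380 that remained (1.05%). Those lists held 39, 9 and 14 of the 11619 genes tested. The median log2 fold change of the 37 was -1.49 with TGF-β1 alone and 1.63 with TGF-β1/G-MDSC supernatant, and all 37 and all 10 were higher than with TGF-β1 alone at an adjusted p under 0.05 in the edgeR fit, a direction that the definition of these classes fixes. The lists were drawn up with results of these data known, and the classes were chosen on the same values, so these shares carry no test. The same supernatant libraries held the kidney, liver and lysozyme transcripts described above, and their part in these values was not tested.

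The promoters of the 3 past-baseline genes with the largest difference among those with a promoter in the table, chosen after their values were seen, and of Samd9l, an interferon-induced antiviral factor outside the program, are shown from 250 bases before to 50 bases after the RefSeq start (GRCm38.p6, gene strand, 5′ to 3′). They are the windows of genes that moved together. Capitals mark the letters GAAANNGAA, a core of the interferon-stimulated response element, read on either strand, and matches may overlap. The windows are chr3:151749861-151750160 for Ifi44, chr5:120907476-120907775 for Oas1a, chr8:71537423-71537722 for Bst2 and chr6:3399522-3399821 for Samd9l, all on the minus strand.
Ifi44: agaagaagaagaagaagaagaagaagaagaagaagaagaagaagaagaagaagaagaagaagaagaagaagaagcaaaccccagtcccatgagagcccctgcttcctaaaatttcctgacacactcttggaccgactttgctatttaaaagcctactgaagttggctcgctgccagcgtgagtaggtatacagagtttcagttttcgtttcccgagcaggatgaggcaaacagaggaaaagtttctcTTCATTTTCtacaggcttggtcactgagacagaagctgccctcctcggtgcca
Oas1a: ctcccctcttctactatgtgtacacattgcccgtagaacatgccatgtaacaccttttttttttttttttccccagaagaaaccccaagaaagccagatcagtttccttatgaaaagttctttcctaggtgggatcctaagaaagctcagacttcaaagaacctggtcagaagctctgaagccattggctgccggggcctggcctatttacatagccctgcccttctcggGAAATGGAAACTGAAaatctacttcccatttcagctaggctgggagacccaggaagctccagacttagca
Bst2: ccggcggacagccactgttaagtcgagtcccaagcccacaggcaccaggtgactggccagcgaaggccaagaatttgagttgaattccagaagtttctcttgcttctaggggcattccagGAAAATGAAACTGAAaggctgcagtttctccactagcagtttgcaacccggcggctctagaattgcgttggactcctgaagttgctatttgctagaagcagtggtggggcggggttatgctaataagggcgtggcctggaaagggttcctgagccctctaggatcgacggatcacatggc
Samd9l: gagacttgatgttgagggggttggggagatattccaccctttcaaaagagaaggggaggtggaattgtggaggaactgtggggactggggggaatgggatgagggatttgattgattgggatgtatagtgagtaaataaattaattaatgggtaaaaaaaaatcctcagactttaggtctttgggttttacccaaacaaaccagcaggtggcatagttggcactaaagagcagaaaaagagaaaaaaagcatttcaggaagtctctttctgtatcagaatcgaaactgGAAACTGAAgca
Ifi44 and Samd9l held 1 match each, and Oas1a and Bst2 held 2 overlapping matches each. Of the past-baseline genes, 26 of 37 had a promoter in the table and 16 of these (61.5%) held the letters, as did 6 of 9 (66.7%) of the back-at-baseline genes, 5 of 28 (17.9%) of the genes above control outside the program and 19 of 276 (6.88%) of the lowered genes that remained. Over all 8204 tested genes with a promoter the share was 6.94%, and it was 8.56% over all 32851 promoters. The SMAD-binding letters CAGACA (the CAGA box), also read on both strands, were in 42 of 172 promoters (24.4%) of the raised genes that remained, against 14.8% of tested genes, 21% of all promoters and 4 of 26 (15.4%) of the past-baseline genes. A match describes the letters of the window and does not show binding. The promoters of Col5a3, Jag1 and Il11 held no CAGACA in this window, and those of Helz2 and Ass1, also above control outside the program, held no GAAANNGAA.

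Bst2 (tetherin), which holds budding virus particles at the cell surface (gene at chr8:71534255-71537456), was measured at 71.6, 70.2 and 76.9 FPKM in control, 25.9, 31 and 33.6 FPKM with TGF-β1 and 421, 443 and 395 FPKM with TGF-β1/G-MDSC supernatant. The 3 groups did not overlap. The log2 fold change was 2.56 ± 0.09 (SE) against control (adjusted p = 5.2e-09) and 3.78 against TGF-β1 alone (adjusted p = 1.76e-09). Usp18, the protease that removes ISG15 from proteins and dampens interferon receptor signalling (chr6:121245906-121270917), stood at 5.21, 5.24 and 6.79 FPKM in control, 0.788, 1.46 and 0.985 FPKM with TGF-β1 and 50.1, 50.4 and 47.4 FPKM with TGF-β1/G-MDSC supernatant, 3.14 ± 0.19 (SE) above control (adjusted p = 3.52e-07).

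Ifi44 rose from 1.7, 1.74 and 2.48 FPKM to 20.8, 17.5 and 17.8 FPKM, the largest log2 fold change of the 37 genes (3.28 ± 0.20 SE, adjusted p = 5.03e-07), and Oas1a, a sensor of double-stranded RNA that activates RNase L, from 6.75, 6.37 and 8.57 FPKM to 43.3, 43.4 and 40.4 FPKM (2.59 ± 0.11 SE). In both genes TGF-β1 alone gave lower values than control, 0.393 to 0.662 FPKM and 2.76 to 3.41 FPKM. Isg15, the ubiquitin-like modifier, was 2.06 above control, Irf7, a transcription factor of interferon production, 1.99, Stat2 1.08 and Irf9 1.05. Ifitm3, which blocks virus entry, was abundant throughout, with 550, 594 and 584 FPKM in control, 212, 221 and 246 FPKM with TGF-β1 and 1186, 1239 and 1143 FPKM with TGF-β1/G-MDSC supernatant. It was 1.08 above control (adjusted p = 1.27e-07). Members of the Ifit3, Oas1, Gbp, H2 and Ly6 families have near-identical copies that can share reads, and their single values are uncertain for that reason.

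Of the 39 type I interferon-stimulated genes tested, 35 were lower with TGF-β1 alone at an adjusted p under 0.05 (18.4% of all genes), whereas 30 were higher and 3 lower than control with TGF-β1/G-MDSC supernatant (16.3% and 18.8% of all genes). Their median log2 fold change was -1.22 with TGF-β1 and 1.27 with TGF-β1/G-MDSC supernatant, and 36 were higher than with TGF-β1 alone, against 2.69% of all genes. Under the alternative fits their median against control ranged from 1.07 to 1.35. The 3 that stayed below control were Rsad2 (viperin), Cmpk2 and Ifit2, with log2 fold changes of -0.98, -0.72 and -0.55. Rsad2 stood at 2.42, 2.67 and 2.42 FPKM in control, 0.378, 0.249 and 0.318 FPKM with TGF-β1 and 1.04, 1.25 and 1.42 FPKM with TGF-β1/G-MDSC supernatant, above TGF-β1 alone (log2 difference 1.94, adjusted p = 2.39e-05) yet below control. Rsad2 and Cmpk2 met the inclusion rule only through the control libraries, where they were highest. Cmpk2 followed the same order, with 1.03, 1.03 and 0.986 FPKM against 1.55, 1.9 and 1.7 FPKM in control.

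Ifit1, which binds viral RNA, was at 23.5, 22.6 and 24.3 FPKM with TGF-β1/G-MDSC supernatant, 26.5, 25.2 and 27.1 FPKM in control and 3.86, 4.3 and 4.55 FPKM with TGF-β1 alone. The log2 fold change against control was -0.12 (95% confidence interval -0.26 to 0.02, adjusted p = 0.158). Lgals9 (galectin 9) was at -0.21 (interval -0.41 to -0.01, adjusted p = 0.104) after a fall of 3.12 with TGF-β1 alone, and its call against control was gained in 2 alternative fits. Mov10, an RNA helicase, was at 0.09 (interval -0.11 to 0.28). Ube2l6, the conjugating enzyme of ISG15, had 6.55, 2.75 and 6.2 FPKM, so that replicate 2 stood below and the others above the control libraries (5.24, 5.48 and 5.22 FPKM), and without that library it passed the test as higher than control. The guanylate-binding proteins Gbp2, Gbp2b and Gbp9, Tgtp2, Oas1c and Arrdc4 made up the rest of the 10.

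**Figure D4:**
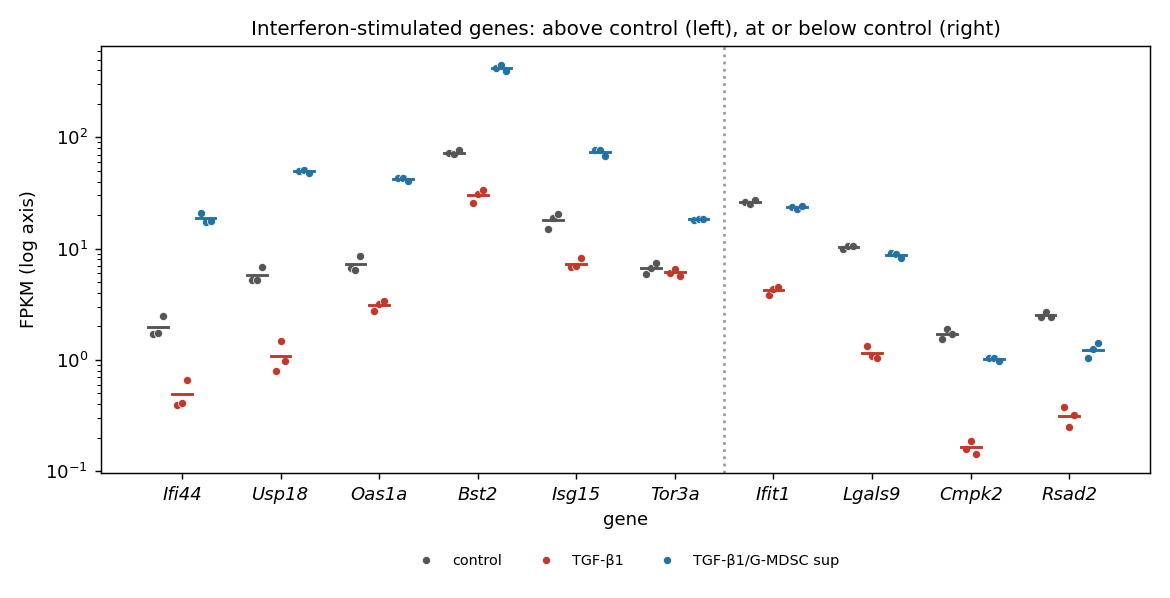
FPKM on a log axis of 6 interferon-stimulated genes above control with TGF-β1/G-MDSC supernatant (left of the dotted line) and 4 at or below it (right), with a point for each of the 3 libraries of a group and a bar at the group mean. On the left the supernatant points stand above both other groups (Bst2 395 to 443 FPKM against 70.2 to 76.9 FPKM in control), and on the right they stand at or below control and above TGF-β1 alone (Ifit1 22.6 to 24.3 FPKM against 3.86 to 4.55 FPKM).

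Of 9 interferon-γ-inducible GTPases, which attack vacuoles of intracellular parasites, all were lower with TGF-β1 alone in the edgeR fit of all libraries (18.4% of all genes). With TGF-β1/G-MDSC supernatant 5 were higher than control and 1 (Tgtp1, -0.39) was lower (16.3% and 18.8% of all genes). The call of Tgtp1 was lost without control replicate 3 and without TGF-β1/G-MDSC supernatant replicate 1. Gbp3 stood at 15.9, 14.4 and 15.3 FPKM against 2.88, 3.18 and 3.84 FPKM in control and 0.695, 0.517 and 0.645 FPKM with TGF-β1 (log2 fold change against control 2.24, adjusted p = 1.56e-07). Of 14 genes of MHC class I antigen presentation, 13 were lower with TGF-β1 alone (18.4% of all genes), and 9 were higher than control with TGF-β1/G-MDSC supernatant (16.3%), all by less than 2-fold. H2-D1, a classical class I heavy chain, was 0.85 and B2m, the light chain, 0.62 above control, with 655, 622 and 561 FPKM of B2m against 393, 402 and 430 FPKM in control. Tap1, the peptide transporter, and Erap1, the peptidase that trims peptides, were 0.62 and 0.53 above control, and the immunoproteasome subunit Psmb10 was at -0.04 (interval -0.28 to 0.20).

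Outside the program, 46 genes were called above control and 84 below it. The lists of interferon and MHC class I genes held 10 of the 46 (21.7%). The median log2 fold change of all 46 against control was 0.49 for TGF-β1 alone and 1.15 once supernatant was added. With the FPKM rule applied to the supernatant and control libraries, or to all 12, the count above control was 110 or 125. Of the 46, 24 were also higher than with TGF-β1 alone at an adjusted p under 0.05 (2.69% of all genes), and the others did not pass that test. The 46 were chosen on the same libraries, a choice that by itself favours this direction, so the count is a description. Parp9, an ADP-ribosyltransferase partner of the interferon response, was at 9.53, 8.35 and 8.9 FPKM against 2.66, 2.9 and 2.71 FPKM in control (log2 fold change 1.73, adjusted p = 4.43e-07), and TGF-β1 alone had lowered it by less than 2-fold (1.5, 2.02 and 1.63 FPKM). Samd9l and Helz2, both interferon-induced, were 1.70 and 1.69 above control. Tor3a, an interferon-responsive ATPase of the endoplasmic reticulum, stood at 17.9, 18.6 and 18.3 FPKM, above control (5.94, 6.73 and 7.42 FPKM) and TGF-β1 alone (6.06, 6.6 and 5.69 FPKM), which overlapped. Il6 was at 2.72, 2.61 and 2.58 FPKM against 1.21, 1 and 1.06 FPKM in control (log2 fold change 1.31, adjusted p = 4.43e-05).

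Ass1, the argininosuccinate synthase of the urea cycle that kidney and liver express strongly, was at 6.05, 5.06 and 4.37 FPKM against 1.72, 2.01 and 1.55 FPKM in control (log2 fold change 1.59, adjusted p = 0.000169), in the same libraries that held kidney and liver transcripts. Rnasek (an endonuclease) rested on 2 libraries, with 34.8 and 28.6 FPKM in replicates 2 and 3 and 9.4 FPKM in replicate 1, against 7.53, 8.67 and 7.8 FPKM in control. In the count above control, leaving out control replicate 1 gave 60 genes, and in the count below control, leaving out TGF-β1/G-MDSC supernatant replicate 3 gave 120.

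The 84 genes below control outside the program were in large part genes that TGF-β1 alone had lowered by less than 2-fold. Their median log2 fold change against control was -0.85 for TGF-β1 alone and -1.16 once supernatant was added. All 84 had estimates below TGF-β1 alone, and 14 passed that test at an adjusted p under 0.05 (2.38% of all genes were lower). The 84 were chosen on the same supernatant libraries, which by itself favours this direction, so the count of 14 is a description. Dipk1b was at 2.83, 3.17 and 3.08 FPKM against 8.84, 8.14 and 9.9 FPKM in control and 4.36, 3.72 and 4.91 FPKM with TGF-β1, a log2 difference of -0.54 from TGF-β1 alone (adjusted p = 0.0164). Gja1 (a connexin, the main gap junction protein) fell by 1.45 to 10.4, 11.5 and 11.5 FPKM from 31.3, 30.7 and 32 FPKM. Its level with TGF-β1 alone (20.2, 19.5 and 11.4 FPKM) differed between libraries, and the difference from it did not pass the test (adjusted p = 0.23). Tlr4, the lipopolysaccharide receptor, had 0.246, 2.17 and 0.595 FPKM against 5.99, 4.48 and 5.65 FPKM in control (log2 fold change -2.38, adjusted p = 0.0398), and that call was lost in 10 of the alternative fits. With TGF-β1 alone Tlr4 was at 2.07, 1.82 and 1.86 FPKM, a log2 fold change of -1.43 that missed the study's rule (edgeR unadjusted p = 0.0929). Its difference between the supernatant group and TGF-β1 alone did not pass the test (adjusted p = 0.629). Rtl8c, Mfap5 and Ston1 had log2 fold changes of -1.43, -1.41 and -1.37.

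Of 22 ligands, receptors and feedback genes of the TGF-β pathway tested, 13 were higher than control and 5 lower (16.3% and 18.8% of all genes), against 14 and 4 with TGF-β1 alone. The feedback inhibitors went both ways, with Smad7 0.99 above control and Smad6 and Bambi at -0.94 and -0.51. Pmepa1, which sequesters receptor-regulated SMADs, stood at 76.2, 75.1 and 70.6 FPKM against 27, 25.4 and 25.5 FPKM in control (log2 fold change 1.55, adjusted p = 5.19e-09) and at 85.1, 86.5 and 81.8 FPKM with TGF-β1. Inhba (the activin A subunit), Nox4 (an NADPH oxidase), Tgfb1 itself and Skil (the SMAD corepressor SnoN) were 1.94, 1.85, 1.78 and 1.59 above control. The type II receptor Tgfbr2 was at 15.7, 15.8 and 16.8 FPKM against 36.7, 36.2 and 37.5 FPKM in control (log2 fold change -1.16, adjusted p = 4.85e-09), the co-receptor Tgfbr3 at -1.76 and Smad3 at -0.95. In the BMP arm 4 of 10 genes were higher and 4 lower (16.3% and 18.8% of all genes): the BMP antagonist Grem1 was 1.48 above control, and the BMP ligand Bmp4 and its target genes Id1 and Id3 had log2 fold changes of -1.79, -1.26 and -1.81.

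Of 17 chemokines and cytokines tested, 5 were higher and 10 lower than control (16.3% and 18.8% of all genes), and 8 were higher than with TGF-β1 alone (2.69%). Ccl2, which attracts monocytes, was at 58.5, 64.4 and 61.9 FPKM in control, 11.3, 12.5 and 12.3 FPKM with TGF-β1 and 34.3, 31.9 and 33.3 FPKM with TGF-β1/G-MDSC supernatant. The groups did not overlap, and the log2 fold change was -0.86 against control (adjusted p = 2.07e-06) and 1.44 against TGF-β1 alone (adjusted p = 1.44e-07). Cxcl10, an interferon-induced chemokine, and the neutrophil chemokine Cxcl5 were lower than control by log2 fold changes of -1.45 and -1.43, and Cxcl1 was at 0.17 (interval -0.28 to 0.62). Lif, a cytokine of the interleukin-6 family, was at 3.55, 3.61 and 3.56 FPKM against 1.92, 2.14 and 1.82 FPKM in control (log2 fold change 0.90, adjusted p = 9.41e-06) and 1.63, 1.64 and 1.68 FPKM with TGF-β1 alone.

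Of 10 complement genes, 5 were lower and 1 higher (18.8% and 16.3% of all genes): C1ra, a protease of the classical pathway, was at 2.75, 2.38 and 2.48 FPKM against 9.68, 9.61 and 10.4 FPKM in control (log2 fold change -1.93, adjusted p = 3.85e-08). C3, the central component, stood at 3.19, 2.94 and 3.67 FPKM against 1.89, 1.84 and 1.52 FPKM, and its log2 fold change of 0.94 missed the threshold (adjusted p = 0.0503), which it passed in 6 alternative fits. Of 16 NF-κB feedback and acute phase genes, 3 were higher (Ptgs2 1.42, Nfkbiz 0.95 and Socs3 0.25), near the 16.3% of all genes, and 5 lower (18.8% of all genes), among them the inhibitor Nfkbia at -0.46 and Vcam1 at -1.36.

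In metabolism, the ATF4 and serine-glycine genes, which supply amino acids for collagen synthesis among other uses, were higher than control in 16 of 20 cases and lower in 1 (16.3% and 18.8% of all genes), with a median log2 fold change of 0.65. With TGF-β1 alone 17 were higher, with a median of 0.78. Cth, which makes cysteine, was at 22.9, 26.7 and 25.4 FPKM against 6.76, 7.44 and 7.74 FPKM in control (log2 fold change 1.81, adjusted p = 1.71e-08), and Trib3 was 1.18 above control. Atf4 itself varied between libraries of each group (111 to 230 FPKM in control and 118 to 276 FPKM with TGF-β1/G-MDSC supernatant), and its log2 fold change of 0.30 had an interval of -0.58 to 1.19. Glycolysis enzymes were split, with 3 of 19 higher (Hk2 0.71, Slc2a1 0.53 and Slc16a3 0.48) and 7 lower (16.3% and 18.8% of all genes), and so were the cholesterol genes, with 7 of 19 higher (Cyp51 0.35) and 4 lower (Dhcr7 -0.44), the latter 1 to 5 over the alternative fits. Of 17 antioxidant genes, 8 were lower (18.8% of all genes) and 1 higher (Cat, 0.25), with the metallothioneins Mt1 and Mt2 at -1.42 and -1.52 and the glutathione transferases Gsta4 and Gstm1 at -1.92 and -1.67.

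Of 22 replication and mitosis genes, 4 were higher and 3 lower at an adjusted p under 0.05, near or under the 16.3% and 18.8% of all genes. Over the alternative fits 3 to 4 were higher and 1 to 6 lower. Mki67, the proliferation antigen, was at 40.8, 37.9 and 44.5 FPKM against 44.5, 35.2 and 41.9 FPKM in control (log2 fold change 0.06, interval -0.19 to 0.30). AP-1 and immediate early factors were split, with 8 of 21 higher and 9 lower (16.3% and 18.8% of all genes): Junb and Fosb were 1.42 and 1.40 above control, and Fos, Egr1 and Klf4 had log2 fold changes of -1.74, -0.83 and -0.70.

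**Figure D5:**
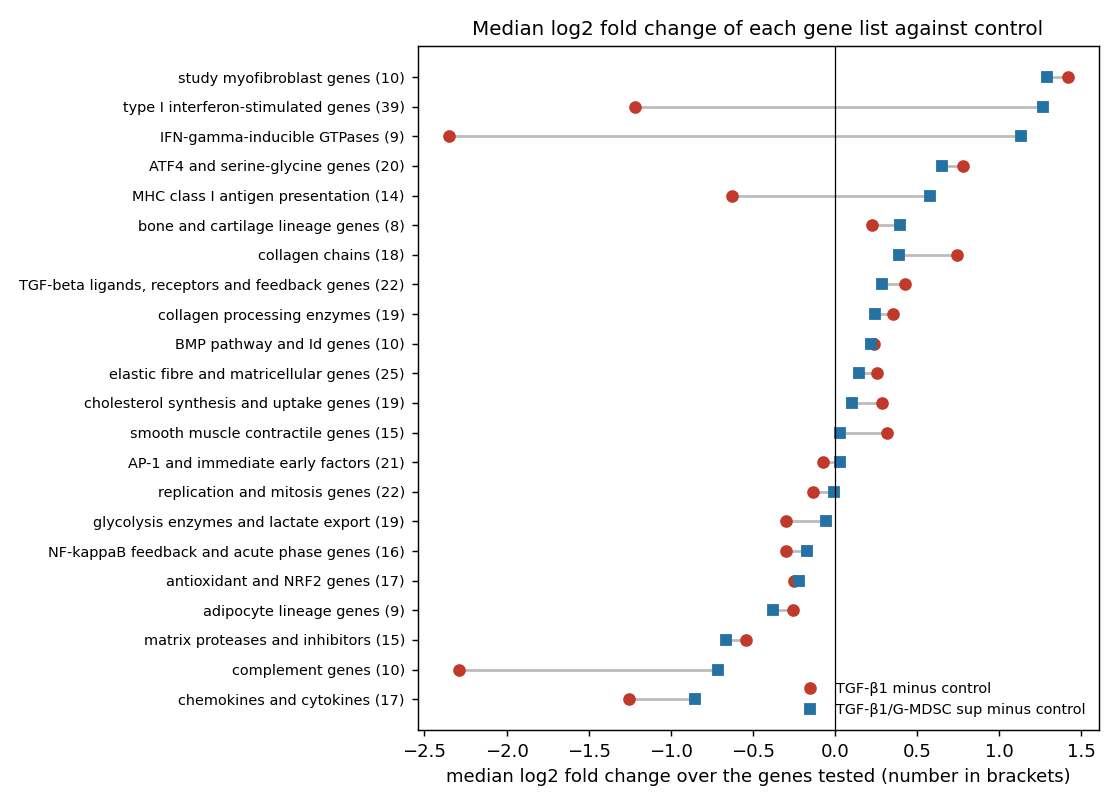
Median log2 fold change against control of each gene list (horizontal axis; number of genes tested in brackets) with TGF-β1 alone (circles) and with TGF-β1/G-MDSC supernatant (squares), where zero is the control level. The interferon lists move from below to above control (type I genes -1.22 and 1.27), the contractile list lies at 0.03 against 0.32, and the collagen list at 0.39 against 0.74. Both medians of a list use the same 3 control libraries.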

How the data were processed

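RNA was sequenced from 12 libraries of mouse MSCs in 4 groups of 3. The authors deposited 1 table with read counts and FPKM per gene and library. Per the labels and the study's methods, libraries were poly(A)-selected, stranded (dUTP) and paired-end, and aligned to GRCm38. The submitters' processing notes name cutadapt 1.9, HISAT2 2.0.4, StringTie 1.3.4d, edgeR and DESeq2, and the counting tool is not given in the sources used here. Among nonzero deposited counts of up to 12, 44.3% were 4, 8 or 12. What 1 count stands for is not given in the sources used here, and counts divided by 4 were run as an alternative. Columns of the authors' own comparisons were not used.

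The deposited counts were tested with edgeR 4.0.16 (R 4.3.3; TMM scaling, quasi-likelihood F test) in 1 fit of all 12 libraries with group as the only term. P-values were adjusted by Benjamini-Hochberg over 11619 genes, log2 fold changes have standard errors and 95% confidence intervals, and FPKM values are printed as the authors gave them (an FPKM of 0.0001 is the table's floor). Alternatives used DESeq2 1.42.0 and limma 3.58.1. The scripts were tested on simulated data.

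The members and gene lists were chosen with earlier results of these data known. Named genes were, in each class, the 6 largest differences with non-overlapping libraries and a mean of at least 5 FPKM in a group, up to 6 members of each list, and the study's myofibroblast genes. Some further list members, and Alb, were named after their values were seen. Some single genes are not reported here. Replicate numbers showed no sign of pairing the samples: deviations from group means of same-numbered libraries correlated between -0.126 and 0.0877 (mean -0.0033 over 18 pairs). Those of unlike-numbered libraries correlated between -0.163 and 0.205 (mean 0.0016 over 36 pairs). With 3 libraries a group, a weak pairing could go unseen.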

Additional observations from a re-analysis of the deposited data

Results flagged for a closer look

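A signal in data outside the comparisons was found among genes that did not meet the FPKM rule. Of the genes left out, 110 had at least 1 FPKM in all 3 TGF-β1/G-MDSC supernatant libraries, and in 90 of these every such library was above every control and TGF-β1 library. Of the 90 genes, 39 had 0 counts in all control and TGF-β1 libraries. Together they held 63315, 59010 and 64144 counts in the supernatant libraries, 7982, 7785 and 8601 in control and 9328, 9333 and 9587 with TGF-β1 alone. Alb, Kap and Umod, transcripts of liver and kidney, were among them. Their origin was not tested.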

How the results depend on the processing

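Of 169 named genes, 0 were called in opposite directions in 12 alternative settings or on leaving out any of 9 libraries. The sign of the estimate changed for 5 genes with no call in the reported fit (Acta2, Cd14, Cd68, Fn1 and Ube2l6), whose log2 fold changes there lay between -0.17 and 0.08. Leaving out 1 library gave 287 to 312 genes higher and 404 to 449 lower than control by the study's rule and 3481 to 4048 at an adjusted p under 0.05, a raised program of 278 to 296 with 250 to 265 remaining and 0 to 1 back at baseline, a lowered program of 460 to 490 with 368 to 397 remaining, 5 to 13 back and 34 to 39 past baseline, and 46 to 60 genes above and 79 to 120 below control outside the program. The count of 5 back at baseline came without TGF-β1/G-MDSC supernatant replicate 2, and the count of 1 without control replicate 3 or TGF-β1 replicate 1. Undetermined genes numbered 23 to 46 in the raised program, with 46 on leaving out control replicate 1, and 36 to 59 in the lowered program.

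With no FPKM filter, more genes were tested and 1376 were higher and 964 lower, the raised program held 806 (517 remaining, 15 back), the lowered program 1241 (587 remaining), and 731 lay above and 316 below control outside it. Filtering on the supernatant and control libraries gave 110 above control outside the program, and on all 12 libraries 125. With limma on log2(FPKM + 1), which understates the change of low genes, 190 were higher and 247 lower, with a raised program of 179 (166 remaining), a lowered program of 283 (237 remaining) and 55 below control outside it. Calls at an adjusted p with no fold limit gave 1898 higher and 2184 lower, 1913 raised (1441 remaining, 401 back), 2138 lowered (1692 remaining, 292 back, 74 past), and 383 above and 490 below outside the program. A 2-fold margin put 4 raised and 19 lowered genes back at baseline.

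With the replicate number as a block, 287 genes were higher and 416 lower, 3923 passed the adjusted p, and 1 raised gene was back at baseline. As the numbers showed no sign of pairing the samples, this was treated as a change of model only. Depth of 73977669 to 84565450 counts per library limits genes near 1 FPKM most.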
